A study of Homo sapiens with 22 samples.

Results

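The extracellular layer of WNT signalling was followed through renal cancer cell lines and through a CRISPR interference (CRISPRi) experiment in one of them. It comprised 46 of the 25343 genes listed in the files: the WNT ligands (19 genes), their Frizzled receptors (FZD, 10), the secreted Frizzled-related inhibitors (SFRP, 4) and the Dickkopf inhibitors (DKK, 4), all chosen by symbol. Added by name were PORCN and WLS, the co-receptors LRP5 and LRP6, the R-spondin receptors LGR4 and LGR5, and the feedback inhibitors AXIN2, RNF43 and ZNRF3. The rule itself uses no measured value, though earlier results of these data were known when the members were chosen.

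WNT ligands are lipid-modified by PORCN in the endoplasmic reticulum and carried to the cell surface by WLS. On the receiving cell they bind a Frizzled receptor and, for the beta-catenin branch, LRP5 or LRP6; stabilised beta-catenin then acts with TCF and LEF factors on target genes, of which AXIN2 is the one most widely used as a readout. SFRP proteins bind ligands, DKK1 blocks LRP5 and LRP6, and RNF43 and ZNRF3 remove Frizzled from the membrane unless R-spondins engage LGR receptors. Clear cell renal carcinoma arises from tubule epithelium, where the pathway is best known for its part in kidney development.

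Polyadenylated RNA was sequenced from 22 libraries in 7 groups, all grown in RPMI with serum. There were 2 libraries each of 786-O, an established clear cell renal carcinoma line, and of a metastatic derivative of it. Another 2 came from OS-LM1, a metastatic renal cancer line unrelated to both. The derivative, whose samples are labelled RNA-Seq_786-M1A, is called M1A for short. The 16 CRISPRi libraries came from M1A cells: 6 with a non-targeting guide (SC), 4 with the guide iMAE-1.1, 4 with iMAE-1.2 and 2 with iMAE-126. They therefore all share the CRISPRi machinery and the M1A background; the labels do not give the site or gene of any iMAE guide, nor whether replicates were separate cultures, so p-values measure only the spread between these libraries. Each line is a single established line, and no group stands for metastasis in general.

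Expected counts summed to 9.06 to 52.7 per library in units of 1e6, and 16940 to 18600 genes had a count. Of 11 markers of renal epithelium and clear cell carcinoma, 10 were at 1 TPM or more (transcripts per 1e6, a level per transcript length) in all libraries of every group, and all 11 were in OS-LM1. Their summed level was 5986 to 10146 TPM, against 3.72 to 15.6 for leukocyte, 0.36 to 1.61 for endothelial and 0 to 0.22 for red cell markers. Among CRISPRi libraries the mean gene length, weighted by reads, separated 2 sets without a name in the labels. Both iMAE-126 libraries and SC replicates 1 and 2 form set A (3528 to 3716 bases), and the remaining 12 form set B (3264 to 3395 bases). In M1A it was 3929 and 3982.

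The promoters of 3 genes are shown because they were among the members with the widest ranges below: the ligand carrier WLS, the secreted inhibitor SFRP2 and the ligand WNT5A. Each is the 250 bases before an annotated start in RefSeq (GRCh38.p14, minus strand, printed 5′ to 3′ in the direction of the gene), at chr1:68232524-68232773, chr4:153789084-153789333 and chr3:55487307-55487556. The expression files use hg19, so these positions were not used with them. CG pairs are in capitals, and 30 of the 46 members had a promoter in the table.
WLS: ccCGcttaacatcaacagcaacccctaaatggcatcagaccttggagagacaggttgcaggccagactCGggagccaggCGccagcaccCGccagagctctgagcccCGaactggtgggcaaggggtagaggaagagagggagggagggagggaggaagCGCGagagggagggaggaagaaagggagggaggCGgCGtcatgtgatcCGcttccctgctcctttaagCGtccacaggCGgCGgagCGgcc
SFRP2: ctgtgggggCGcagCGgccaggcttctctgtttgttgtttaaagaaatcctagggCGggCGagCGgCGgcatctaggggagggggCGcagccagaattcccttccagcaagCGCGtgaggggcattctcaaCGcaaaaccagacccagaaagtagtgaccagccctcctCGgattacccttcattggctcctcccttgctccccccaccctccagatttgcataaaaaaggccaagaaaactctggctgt
WNT5A: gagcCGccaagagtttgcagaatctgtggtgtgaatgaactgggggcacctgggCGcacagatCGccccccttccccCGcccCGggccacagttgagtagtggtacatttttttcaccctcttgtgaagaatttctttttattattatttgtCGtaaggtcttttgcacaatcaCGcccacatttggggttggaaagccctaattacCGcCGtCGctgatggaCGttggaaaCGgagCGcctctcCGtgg
They hold 14, 11 and 14 CG pairs. As many or more were in 44.8%, 50.3% and 44.8% of the 35116 promoters in the table, whose median was 11, so in this measure the 3 stand near the middle of all promoters. No deposited value used here reports on the state of this DNA.

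Of the 46 members, 22 were silent or nearly so and 24 were expressed. Counts were 0 in all 22 libraries for 7 members (DKK2, DKK4, SFRP1, WNT7A, WNT8A, WNT9A and WNT9B). Another 15 stayed under a group mean of 1 CPM (counts per 1e6, with TMM scaling) in every group, among them LGR5, WNT1, WNT3A, WNT4, WNT16, DKK1 and RNF43. SFRP4, WNT10A and WNT2B reached 1 but not 5 CPM, and 21 members reached 5 CPM or more in at least 1 group. The plot of all 24 members above 1 CPM by library shows receptors and co-receptors detected in every library, while most ligands and inhibitors were high in 1 or 2 groups.

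**Figure D1:**
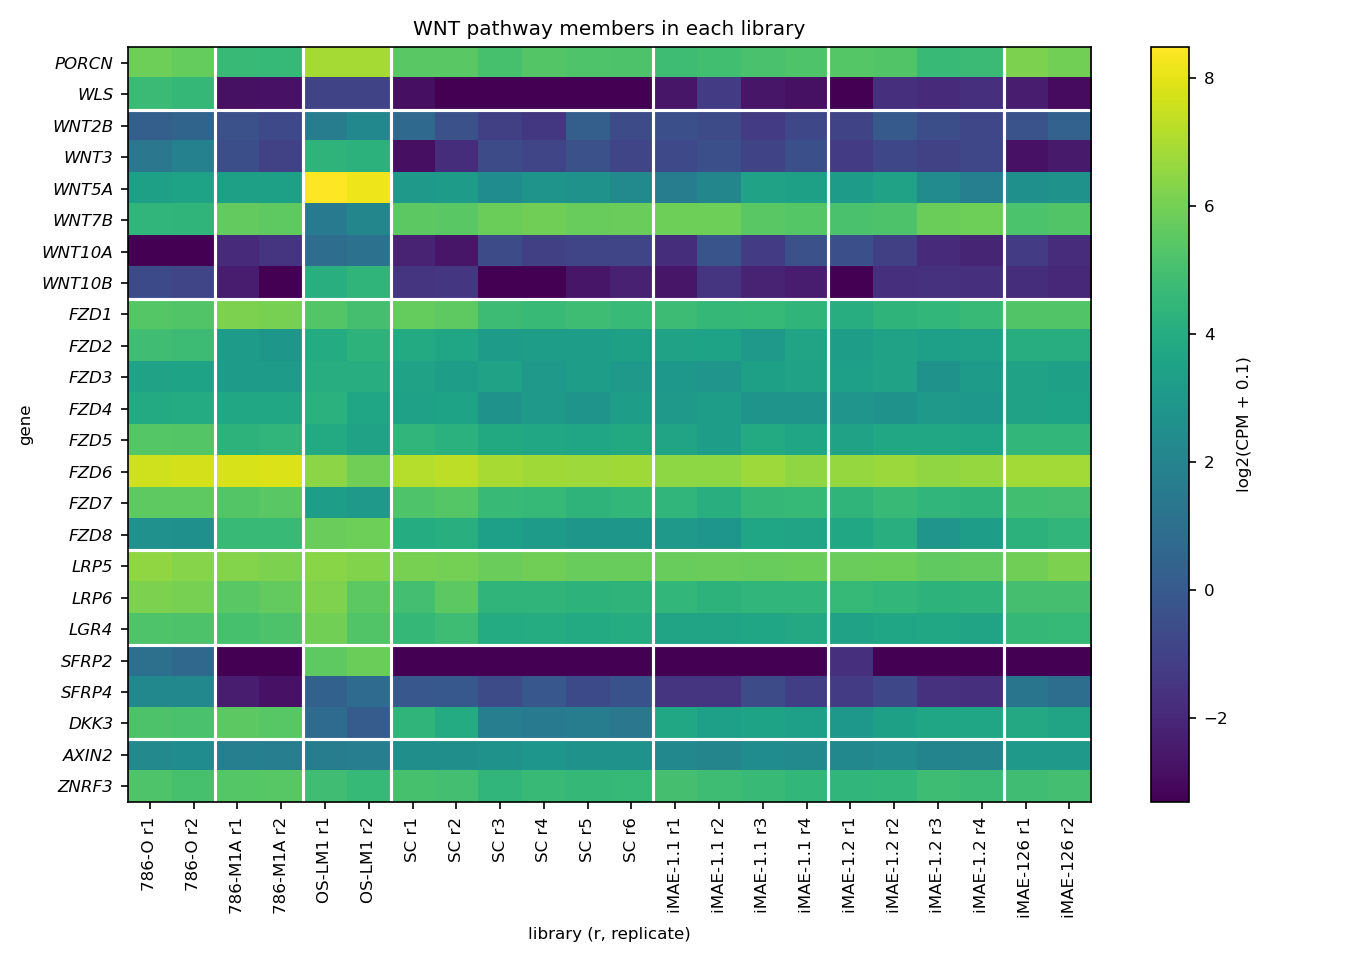
Level of the 24 members that reached 1 CPM in some group, as log2(CPM + 0.1), in each of the 22 libraries; colour gives the level, columns are libraries by group and rows are ordered by role, from ligand processing to feedback inhibitors. WLS is bright in the 786-O columns alone, and WNT5A, WNT10B, WNT3 and SFRP2 are brightest in OS-LM1.

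In levels per transcript length, 1 ligand made up most of the WNT family RNA of each line, and it was not the same one. WNT7B held 58.7% ± 3.4 (SD, n = 2) of the summed WNT TPM in 786-O and 84.0% ± 0.07 (SD, n = 2) in M1A. In OS-LM1 it was WNT5A, with 75.9% ± 4.5 (SD, n = 2), followed by WNT10B at 11% ± 2.3 (SD, n = 2). The summed level of all WNT ligands was 20.2 and 21.0 TPM in 786-O, 29.5 and 30.8 in M1A, and 137 and 156 in OS-LM1. Among receptors FZD6 led in all 7 groups, at 120 TPM in 786-O, 122 in M1A and 37.9 in OS-LM1 (group means). FZD8 was nearly level with it in OS-LM1, at 31.1% against 33.6% of the Frizzled sum, where single libraries ran from 28.2% to 34.0% for FZD8 and from 30.6% to 36.7% for FZD6, so these ranges overlapped.

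**Figure D2:**
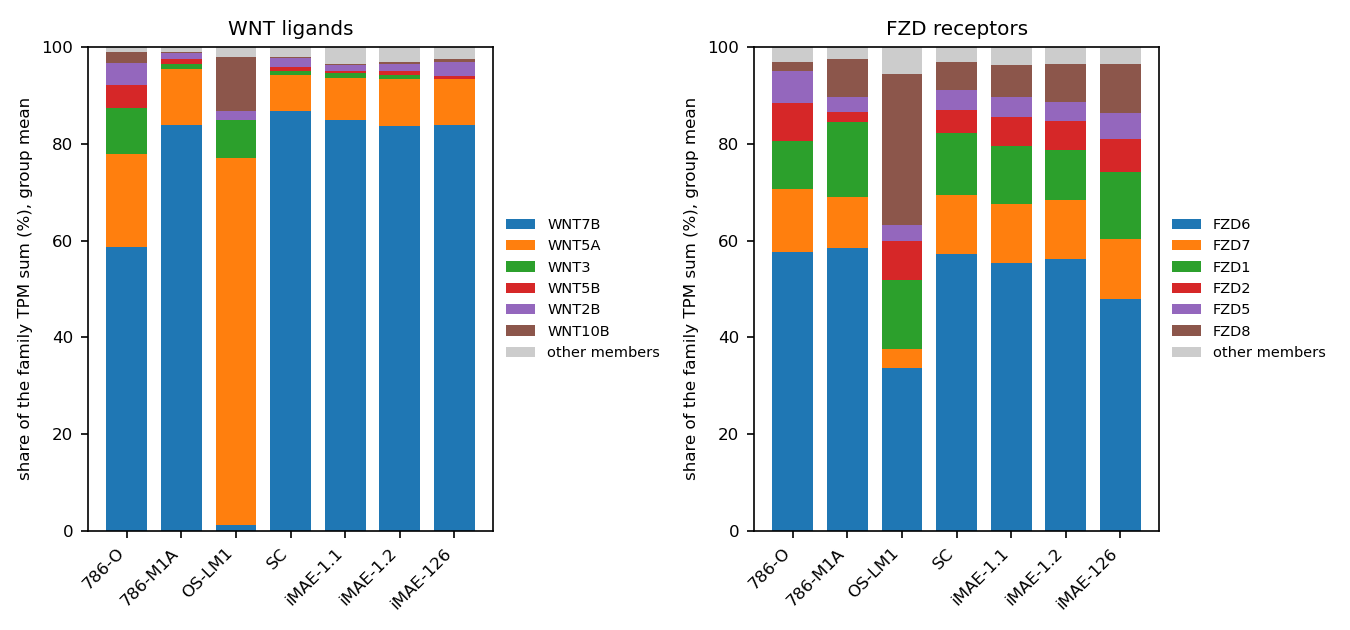
Share of the summed TPM of each family held by each gene (stacked bars, mean over the libraries of a group, in percent), for WNT ligands on the left and Frizzled receptors on the right; genes under 4% in every group are pooled as other members. WNT7B holds the largest share in every group but OS-LM1, where WNT5A does, and FZD8 is widest in OS-LM1.

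Between 786-O and its metastatic derivative, both genes of ligand processing fell, 1 of them to almost nothing. WLS had 1007 and 941 counts in the 786-O libraries (26.7 and 23.4 CPM) and 2 and 2 counts in M1A (0.0444 and 0.0477 CPM). Its log2 fold change was −9.02 (SE 0.25; adjusted p = 4.31e-07, edgeR quasi-likelihood test over all genes). PORCN, the acyltransferase, stood at 58.8 and 52.5 CPM in 786-O and 25.3 and 24.2 in M1A, and fell by 1.21 on the log2 scale (SE 0.10; adjusted p = 8.92e-05). Each SE with an edgeR value is the absolute log2 fold change divided by the square root of the test's F statistic. Where a group held few counts, as WLS did in M1A, the counting error can be larger than this SE. The WLS groups were far apart, and no M1A library of any kind regained the gene: the 16 CRISPRi libraries held 0 to 5 counts each. The antisense gene GNG12-AS1 overlaps WLS and ran from 0 to 0.523 CPM. Whether reads were counted by strand is not stated in the sources at hand, so reads of such partners cannot be told apart. In bulk RNA, fewer cells of a type and less RNA per cell cannot be told apart either.

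Over the whole group, 28 of the 46 members passed the filter on low counts in the 3 lines. In M1A versus 786-O, 16 of these were called at an adjusted p under 0.05, beside 31.0% of all 16354 genes tested. Of them 4 rose (background 14.7%) and 12 fell (background 16.3%). The median log2 fold change was −0.30 over the tested members and −0.02 over all genes tested.

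Among the ligands of M1A, WNT7B rose and 4 less abundant ligands fell. WNT7B went from 21.96 and 20.85 CPM in 786-O to 49.8 and 47.3 CPM in M1A (log2 1.14, SE 0.14; adjusted p = 0.000591, edgeR). WNT3 stood at 2.46 and 3.58 CPM in 786-O and 0.621 and 0.406 in M1A, a fall of 2.58 (SE 0.28; adjusted p = 0.000317, edgeR). WNT3 overlaps LRRC37A2, which stood at 12.7 and 15.9 CPM in 786-O and at 7.12 and 7.54 in M1A; its part in the WNT3 value was not tested. WNT10B (log2 −3.35), WNT5B (−1.75) and WNT2B (−1.06, adjusted p = 0.0397 in edgeR) fell too, from at most 1.29 CPM in 786-O. For WNT2B the adjusted p missed the threshold whichever of the 4 libraries was left out (0.0886 to 0.197), and with DESeq2 (0.0557). WNT10A, with 0 counts in 786-O and 18 in M1A, was at least 5.38-fold higher there, taking 3 counts over the group as the floor, though limma on log2(TPM + 1) did not call it (adjusted p = 0.0914). WNT5A, the other abundant ligand, was at 10.3 and 11.3 CPM in 786-O and 10.5 in both M1A libraries, and its log2 difference of −0.08 (SE 0.14) was within their spread.

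The receptors moved in both directions. FZD8 was at 6.12 and 5.97 CPM in 786-O and at 26.0 and 25.0 in M1A, a log2 rise of 2.04 (SE 0.10; adjusted p = 7.99e-06, edgeR). FZD1 went from 41.9 and 39.2 to 71.4 and 66.5 CPM (log2 0.73, SE 0.12; adjusted p = 0.00321, edgeR), a call that missed the threshold without 786-O replicate 2 (adjusted p = 0.0551). FZD2 fell from 29.0 and 27.2 to 8.78 and 7.61 CPM (log2 −1.81, SE 0.15) and FZD5 from 41.1 and 40.4 to 19.9 and 22.1 CPM (−0.997, SE 0.14). The most abundant receptor, FZD6, differed by 0.09 (SE 0.15), and the co-receptors LRP5 and LRP6 by −0.25 (SE 0.11; adjusted p = 0.119, edgeR) and −0.61 (SE 0.20; adjusted p = 0.0524, edgeR), none of them called. For LRP6 the M1A libraries (43.4 and 50.4 CPM) nonetheless lay below both of 786-O (71.9 and 67.5), and DESeq2 called it (adjusted p = 0.0260). Fitted on the 2 groups alone it was called too (adjusted p = 1.35e-07, edgeR), as were DKK3, FZD3, FZD4, FZD7, LRP5 and ZNRF3. In that fit 8733 of 15474 genes were called.

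Both tested SFRP inhibitors fell in M1A. SFRP2 held 74 and 59 counts in 786-O and 0 in both M1A libraries, which makes it at least 49.5-fold lower. SFRP4 went from 4.53 and 4.40 CPM to 0.0887 and 0.0477 CPM (log2 −5.98, SE 0.38; adjusted p = 2.04e-05, edgeR). DKK3, a Dickkopf relative that does not act as DKK1 does on LRP6, was at 36.5 and 34.6 CPM and at 45.9 and 43.0 CPM, a difference of 0.28 (SE 0.13; adjusted p = 0.128, edgeR). AXIN2 fell from 4.66 and 5.17 to 3.37 and 3.27 CPM (log2 −0.61, SE 0.18; adjusted p = 0.0339, edgeR), but left out in turn, each of the 4 libraries took the call away (adjusted p 0.115 to 0.209), as did DESeq2 (0.0679). RNF43, with 18 counts in 786-O (15 and 3 by library) and 0 in M1A, was at least 6.70-fold lower, so its bound rests mostly on 1 library. ZNRF3 differed by 0.21 (SE 0.13) and was not called.

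OS-LM1 carried a different set of ligands. WNT5A, known for signalling without beta-catenin through ROR receptors, was at 359 and 293 CPM in OS-LM1 against 10.5 in both M1A libraries, a log2 difference of 4.96 (SE 0.15; adjusted p = 1.17e-07, edgeR). WNT10B, a ligand of the beta-catenin branch, was at 17.6 and 21.3 CPM against 0.0887 and 0 (log2 8.62, SE 0.43). WNT3 was at 20.5 and 19.1 CPM against 0.621 and 0.406 (log2 5.26, SE 0.27). These 3 groups of values lay far apart. In the other direction WNT7B, at 2.78 and 4.24 CPM, was below M1A by −3.82 on the log2 scale (SE 0.17; adjusted p = 9.30e-07, edgeR).

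Lower ligands rose in OS-LM1 as well: WNT2B by 2.69, WNT10A by 3.18, and WNT1, with 38 counts against 0, by at least 26.6-fold. In all, 23 of the 28 tested members were called between OS-LM1 and M1A, where 68.7% of all genes were. Of these 16 were higher (background 34.4%) and 7 lower (background 34.3%), and the member median was 0.97 against 0.04 for all genes. Against 786-O the count was 23 of 28 (background 63.6%), with 12 higher (background 30.4%) and 11 lower (background 33.3%), and the median was −0.06. Those comparisons share the OS-LM1 libraries, and each shares its other line with the comparison of M1A and 786-O. Of 8 tested ligands, 6 were higher and 1 lower against M1A, and 6 were higher and 2 lower against 786-O. WNT1, WNT10A, DKK1 and RNF43 passed the filter on low counts only through OS-LM1, where they are high, so the filter partly set their direction. The counts of higher members and ligands and the medians include them, and the background genes passed the same filter.

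Ligand processing in OS-LM1 was uneven. PORCN was at 118 and 119 CPM, above both M1A (log2 2.27, SE 0.10) and 786-O (1.06, SE 0.10; adjusted p = 5.19e-05, edgeR). WLS was at 0.437 and 0.430 CPM, higher than in M1A (log2 3.15, SE 0.48) yet lower than in 786-O by −5.87 (SE 0.21; adjusted p = 3.05e-07, edgeR). The line with the highest WNT RNA sum thus held 11 and 7 counts of the ligand carrier.

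Receptors of OS-LM1 were led by FZD6 and FZD8. FZD8, at 55.4 and 58.6 CPM, was above M1A by 1.17 (SE 0.10; adjusted p = 2.04e-05, edgeR) and above 786-O by 3.21 (SE 0.11). FZD7, often studied as a receptor of epithelial and stem cells, was at 9.58 and 7.99 CPM against 40.3 and 43.4 in M1A (log2 −2.23, SE 0.12). FZD6 was at 85.5 and 61.4 CPM against 217 and 234 (−1.61, SE 0.16). FZD1 (−0.91) and FZD5 (−0.67) were lower than in M1A, and FZD2 (1.09) and FZD3 (0.85) were higher. The OS-LM1 libraries, whose read-weighted mean gene length was 3617 and 3391, differed between themselves in LGR4 (62.2 and 38.8 CPM) and LRP6 (73.2 and 44.9 CPM). The LGR4 call against M1A (0.56, adjusted p = 0.0339, edgeR) was lost without OS-LM1 replicate 1 (0.15, adjusted p = 0.179) and without either M1A library (adjusted p = 0.174 and 0.0877), and LRP6 was called without OS-LM1 replicate 2 (0.66); the part of the length difference was not tested.

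The inhibitors of OS-LM1 differed from those of M1A in both directions. SFRP2 had 1181 and 935 counts (47.0 and 57.5 CPM) against 0, at least 1482-fold higher, and was above 786-O by 4.90 on the log2 scale (SE 0.19; adjusted p = 1.55e-06, edgeR). SFRP4 was at 1.15 and 1.66 CPM, higher than in M1A (log2 4.26, SE 0.44) and lower than in 786-O (−1.72, SE 0.28). DKK3 was at 1.63 and 0.984 CPM against 45.9 and 43.0 (log2 −5.01, SE 0.19; adjusted p = 3.29e-07, edgeR). DKK1 had 18 counts in OS-LM1, 0 in 786-O and 1 in M1A. Its ratio to M1A was 37.8, with an exact 95% interval of 5.97 to 1576 for counting error. RNF43 had 43 counts against 0 in M1A (at least 30.1-fold higher). AXIN2, at 3.06 and 3.26 CPM, differed from M1A by −0.07 (SE 0.19) and was lower than in 786-O (−0.67, adjusted p = 0.0143, edgeR; 0.0854 without 786-O replicate 2). Markers of smooth muscle and pericytes summed to 67.7 to 68.3 TPM in OS-LM1, against 8.43 to 28.0 in the other groups; their part in these values was not tested.

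**Figure D3:**
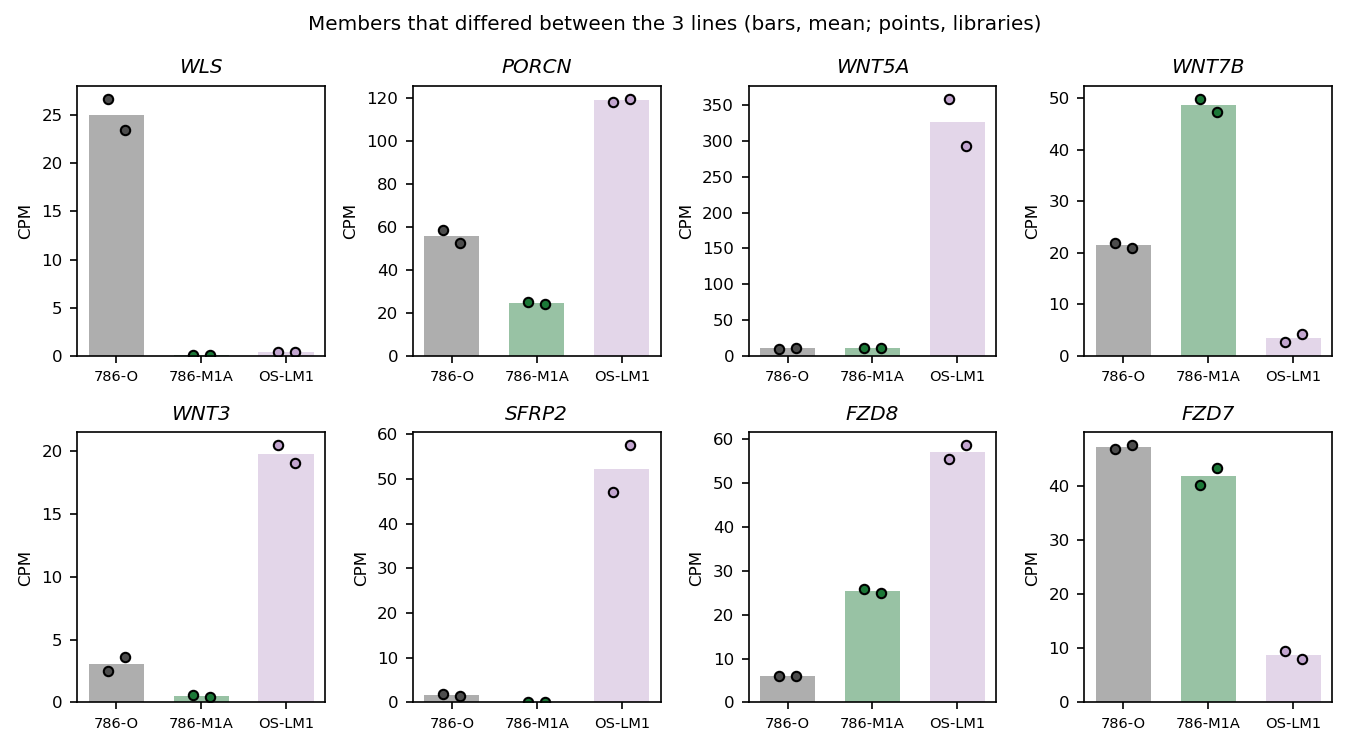
CPM (linear axes from 0, scaled for each gene) of 8 members in 786-O, M1A and OS-LM1; bars are means of 2 libraries and points are the libraries. WLS is high in 786-O alone, WNT7B is highest in M1A, and WNT5A, WNT3, SFRP2 and PORCN are highest in OS-LM1, while FZD7 is lowest there.

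Other genes of the pathway were taken from 4 lists (intracellular signalling, polarity and alternative receptors, other secreted or surface modulators, and beta-catenin targets). Between M1A and 786-O, 3 of 22 tested intracellular genes were higher and 5 lower, where 14.7% and 16.3% of all genes were. LEF1, which binds DNA with beta-catenin, fell by 6.60 on the log2 scale (SE 0.29; adjusted p = 3.96e-06, edgeR), from a mean of 10.1 to 0.103 CPM. TCF7, a factor of the same family, rose by 1.85 (SE 0.11) from 12.8 to 47.5 CPM. PTK7, a co-receptor in planar polarity, fell by 8.23 (SE 0.46; adjusted p = 1.08e-05, edgeR), one of 3 higher and 4 lower among 12 tested of its list. Of 14 tested targets, 4 were higher, led by SP5 (2.86), and 2 lower. LEF1 and TCF7 are on the target list as well and are counted in both. Of 7 other modulators, TPBG was higher (1.05) and GPC4 and CTHRC1 lower (−1.66 and −0.65). CTHRC1 missed the threshold whichever of the 4 libraries was left out (adjusted p 0.0650 to 0.147).

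In OS-LM1 against M1A, 5 of 22 intracellular genes were higher and 12 lower, where 34.4% and 34.3% of all genes were, with TCF7L2 at 1.48 and GSK3B at −1.51. Of the polarity list 2 were higher and 5 lower, PTK7 at 4.803 and SCRIB at −1.96. Of the targets 4 were higher and 5 lower: NKD2, a feedback inhibitor, had 93 counts against 0, and CD44 was lower by −1.85. Of 7 modulators 2 were higher, among them the DKK receptor KREMEN2 (1.38), and 3 lower. LEF1 was also low in OS-LM1 (mean 0.181 CPM, and −5.72 against 786-O). NKD2 passed the filter on low counts only through OS-LM1, and LEF1 only through 786-O, so the filter partly set their directions. The counts of the lists include them.

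The non-targeting control cells were compared with unmodified M1A, where the effect of the CRISPRi vector and that of separate library making cannot be told apart. In 19 tested members, 9 were called, beside 53.0% of all 14769 genes. AXIN2, PORCN and SFRP4 were higher (background 27.8%), and DKK3, FZD1, FZD6, FZD8, LGR4 and ZNRF3 lower (background 25.3%). AXIN2 ran from 5.73 (median 6.55) to 7.16 CPM in SC against 3.37 and 3.27 in M1A (log2 1.05, SE 0.15; adjusted p = 0.00185, edgeR). PORCN ran from 32.7 (median 38.4) to 43.7 CPM against 25.3 and 24.2 (0.76, SE 0.13), and SFRP4 from 0.521 (median 0.749) to 0.847 CPM against 0.0887 and 0.0477 (3.37, SE 0.47). The SC libraries lay above both M1A libraries in all 3. These 3 also kept their calls with SC replicates 1 and 2 only (0.89, 0.92 and 3.63) and with SC replicates 3 to 6 only (1.07, 0.62 and 3.16). SFRP4, with 4 and 2 counts in M1A, passed the filter on low counts only through SC, so the filter partly set its direction.

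The 6 lower members were also called with either SC subset (adjusted p 2.87e-05 to 0.0318 with SC replicates 1 and 2 only, edgeR), at sizes that differed. DKK3 ran from 2.47 (median 3.08) to 21.2 CPM in SC against 45.9 and 43.0, a log2 difference of −2.34 (SE 0.75; adjusted p = 0.0285, edgeR). Its difference was −1.16 with SC replicates 1 and 2 only and −3.90 with replicates 3 to 6. FZD1 (−0.91), FZD8 (−1.07) and LGR4 (−0.78) were likewise smaller in size with replicates 1 and 2 (−0.37, −0.51 and −0.33) than with replicates 3 to 6 (−1.33, −1.54 and −1.12). All 6 lower members lost their call without M1A replicate 2 (adjusted p 0.0666 to 0.164), and all but FZD6 without replicate 1 (0.0972 to 0.132). DKK3, FZD1 and LGR4 also lost it without SC replicate 3 (0.0543 to 0.0586) or SC replicate 5 (0.0504 to 0.0522), and LGR4 without SC replicate 4 or 6 (0.0543 and 0.0549). Members called without each library in turn numbered 3 to 14: 4 and 3 without M1A replicates 1 and 2, 14 without SC replicate 2, and 6 without SC replicate 3 or 5. All genes called were 9085 of 14744 without SC replicate 2, and 6627 of 14769 and 6646 of 14755 without SC replicates 3 and 5. WNT7B, the main ligand, ran from 44.0 (median 54.2) to 60.6 CPM against 49.8 and 47.3 and was not called (0.22, SE 0.13). Of the 4 pathway lists, 3 of 21 intracellular genes were higher and 10 lower, beside the shares of all genes given above, among the latter CSNK1A1 (−1.32), CTNNB1, which encodes beta-catenin (−1.17), and APC (−1.096). Of 11 polarity genes 2 were higher and 6 lower, of 6 modulators 2 and 1, and of 11 targets 3 and 3; the WNT deacylase NOTUM rose by 1.48, on 2 of the lists, and CCND1 fell by 1.11 on the log2 scale. The calls of NOTUM and CCND1 were lost without either M1A library. WLS had 1 count in 6 SC libraries, so the carrier stayed near 0 in the CRISPRi cells.

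All 3 iMAE guides were compared with the same SC libraries. The guides iMAE-1.1 and iMAE-1.2 left 22 tested members without a call against SC in edgeR. Backgrounds were 0.452% and 0.721% of 15254 genes. At an unadjusted p under 0.05 there were 7 and 6 members, beside 18.0% and 20.5% of all genes. DESeq2 called 2 and 4, where it called 2.83% and 4.35% of all genes. The calls in DESeq2 were FZD6 and LGR4 with both guides, and AXIN2 and FZD1 with iMAE-1.2 as well. Member medians were −0.19 and −0.21 on the log2 scale against 0.00 for all genes with either guide.

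AXIN2 lay on opposite sides of SC with the iMAE-1 guides and with iMAE-126. It stood at 4.49, 4.05, 5.34 and 4.97 CPM with iMAE-1.1 and at 4.49, 5.03, 3.88 and 3.99 CPM with iMAE-1.2, all below the SC range of 5.73 to 7.16. With iMAE-126 it was at 8.41 and 8.005 CPM, above every SC library. The log2 differences from SC were −0.43 (SE 0.12; adjusted p = 0.128, edgeR), −0.55 (SE 0.13; adjusted p = 0.0536, edgeR) and 0.36 (SE 0.15; adjusted p = 0.101, edgeR), none called. With library set as a term they were −0.50 (adjusted p = 0.0530), −0.62 (adjusted p = 0.0135) and 0.52 (adjusted p = 0.0474) in edgeR, so 2 of the 3 then passed. Tested directly, iMAE-126 exceeded the mean of both iMAE-1 guides by 0.86 (SE 0.14; adjusted p = 0.000382, edgeR), and by 1.08 with library set as a term (SE 0.21; adjusted p = 0.00285), where 11.9% of all genes were called. PORCN (0.79, adjusted p = 0.0362, edgeR) and SFRP4 (2.16, adjusted p = 0.0147, edgeR) were higher in that last fit too, and DKK3 was lower (−2.46, SE 0.25; adjusted p = 9.41e-06, edgeR). Without that term 5760 of 15254 genes were called in the guide comparison, and DKK3 was at 0.22 (SE 0.61, adjusted p = 0.801, edgeR). The values of AXIN2, PORCN, SFRP4 and DKK3 with that term all depend on the set difference of the SC libraries, since iMAE-126 and the iMAE-1 guides share no set. Without the term, guide and set cannot be told apart in the guide comparison. The guide comparison was added after AXIN2 had been seen on both sides of SC.

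DKK3 differed most between the sets of libraries. SC replicates 1 and 2 of set A had 21.2 and 15.4 CPM, and the SC libraries of set B 2.47 to 3.17. With iMAE-1.1 it was at 10.0 to 13.0 CPM and with iMAE-1.2 at 7.80 to 12.7 CPM, above every SC library of their own set B. Pooled over sets, the log2 differences were 0.44 (SE 0.52) and 0.41 (SE 0.52), not called. With library set as a term they were 1.95 (SE 0.17; adjusted p = 8.12e-07, edgeR) and 1.93 (SE 0.17; adjusted p = 1.05e-06, edgeR). DKK3 was the 1 member called with iMAE-1.1 in that fit (background 1.79%) and, with AXIN2, 1 of 2 with iMAE-1.2 (background 2.73%).

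With iMAE-126, 4 of 22 members were called (background 15.5%): FZD2, PORCN and SFRP4 rose (background 6.21%) and WNT3 fell (background 9.24%). PORCN was at 71.0 and 63.2 CPM against 32.7 to 43.7 in SC (log2 0.79, SE 0.17; adjusted p = 0.00643, edgeR). SFRP4 was at 2.28 and 1.81 CPM against 0.521 to 0.847 (log2 1.52, SE 0.32; adjusted p = 0.00612, edgeR). Neither overlapped SC. With library set as a term PORCN (0.62, adjusted p = 0.0385, edgeR) and SFRP4 (1.28, adjusted p = 0.0431, edgeR) passed, joined by AXIN2 and by FZD6 (−0.40, adjusted p = 0.00997, edgeR), where the background was 16.7%. Against only the SC libraries of their own set, SFRP4 (1.29, adjusted p = 0.0528, edgeR) and AXIN2 (0.53, adjusted p = 0.0705, edgeR) were not called. PORCN was called higher there (0.63, adjusted p = 0.000126, edgeR). FZD6 (−0.39), FZD1 (−0.34), FZD7 (−0.35), DKK3 (−0.52) and WNT7B (−0.28) were called lower, at adjusted p of 0.000901 to 0.0478 in edgeR. Of all genes 3636 of 14941 were called in that fit, 1547 higher and 2089 lower. FZD2, at 16.5 and 16.3 CPM against 8.72 to 14.7, was called (0.59, adjusted p = 0.0315, edgeR). It was not called with library set as a term (0.27, adjusted p = 0.244, edgeR). WNT3, at 0.0475 and 0.0798 CPM, overlapped SC (0.0412 to 0.651) and moved from −2.37 (adjusted p = 0.0437, edgeR) to −0.57 (adjusted p = 0.746) with it. All 4 calls were lost without either iMAE-126 library, at adjusted p of 0.101 and 0.0627 for PORCN and 0.0948 and 0.0629 for SFRP4, and the FZD2 and WNT3 calls also without any 1 of SC replicates 3 to 6.

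Several other receptors differed between the SC libraries of the 2 sets. FZD1 was at 47.5 and 51.1 CPM in the SC libraries of set A, at 38.3 and 39.2 with iMAE-126, and at 25.1 to 28.2 in the SC libraries of set B. LRP6 was at 30.7 and 45.4 CPM in SC of set A and at 19.6 to 21.3 in SC of set B, where iMAE-1.1 (19.9 to 22.2) and iMAE-1.2 (19.6 to 23.6) overlapped it. For LGR4, the R-spondin receptor, these values were 23.1 and 28.5 against 14.8 to 15.8 CPM, with 11.8 to 13.8 for iMAE-1.1 and 11.01 to 13.3 for iMAE-1.2, all 8 below every SC library. FZD6 was at 88.3 to 108.0 CPM with iMAE-1.1, whose highest library met the lowest of SC (107.9 to 160 CPM), and at 113 and 116 with iMAE-126. LRP5, the steadiest of these, ran from 49.1 to 72.0 CPM over all 16 libraries.

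**Figure D4:**
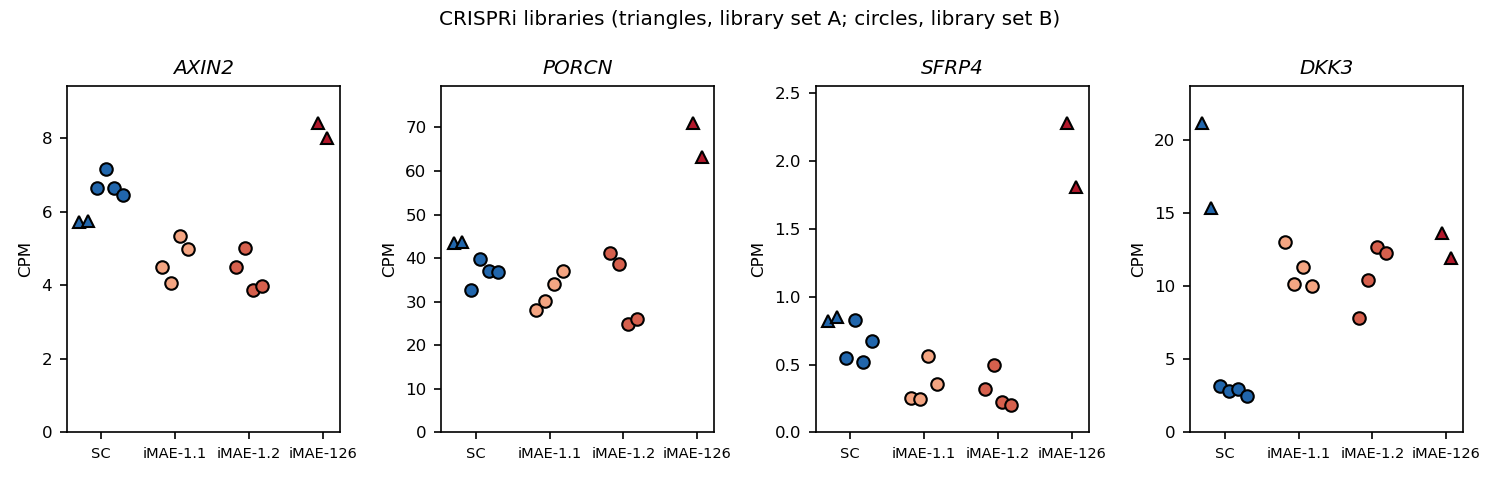
CPM of AXIN2, PORCN, SFRP4 and DKK3 (linear axes from 0) in the 16 CRISPRi libraries by guide; each point is a library, triangles are library set A and circles set B. AXIN2 lies below the SC libraries with both iMAE-1 guides and above them with iMAE-126, and the DKK3 points of SC split by set, 15.4 and 21.2 against 2.47 to 3.17.

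Of the wider pathway, no gene of the 4 lists was called with iMAE-1.1, and TNFRSF19 (−0.40, adjusted p = 0.0220, edgeR) was the 1 called with iMAE-1.2, lost without any 1 of the 4 iMAE-1.2 libraries (0.0535 to 0.0937). With iMAE-126, 3 of 21 intracellular genes were called, beside 15.5% of all genes, among them TLE1, a corepressor of TCF factors (0.65; 0.27 and not called with library set as a term, adjusted p = 0.0799 in edgeR). The targets MYC (−0.88) and CD44 (−0.65), 2 of 11 tested, were lower, and with library set as a term MYC was at −0.16 (adjusted p = 0.235, edgeR). The calls of TLE1, MYC and CD44 were lost without either iMAE-126 library. SP5, another target, was at 5.94 to 6.99 CPM with iMAE-126, within its SC range of 4.12 to 11.3.

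Among the 8 libraries with an iMAE-1 guide, 7 of 17 members did not overlap across a division that crosses the guides, and 10 did. The first principal component over all other genes, with 45.41% of the variance, put iMAE-1.1 replicates 1 and 2 with iMAE-1.2 replicates 3 and 4, and iMAE-1.1 replicates 3 and 4 with iMAE-1.2 replicates 1 and 2. The labels do not name this division. WNT5A was at 3.08 to 5.06 CPM on the first side and 8.98 to 11.1 on the second, and WNT7B, in the opposite order, at 57.5 to 59.8 and 34.4 to 43.5. FZD8 was at 7.09 to 9.45 and 11.7 to 17.0 CPM, and PORCN at 24.9 to 30.1 and 34.0 to 41.3. FZD3 was also lower on the first side, and FZD4 and ZNRF3 higher. The 17 members are those with a mean of at least 1 CPM, and the 7 are 41.2% of them, beside 27.4% of 13621 genes; nothing particular to the members is read from these shares. Since each guide has 2 libraries on either side, the group means of these genes hide a spread of this size, and the part of the division in the guide comparisons was not tested.

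**Figure D5:**
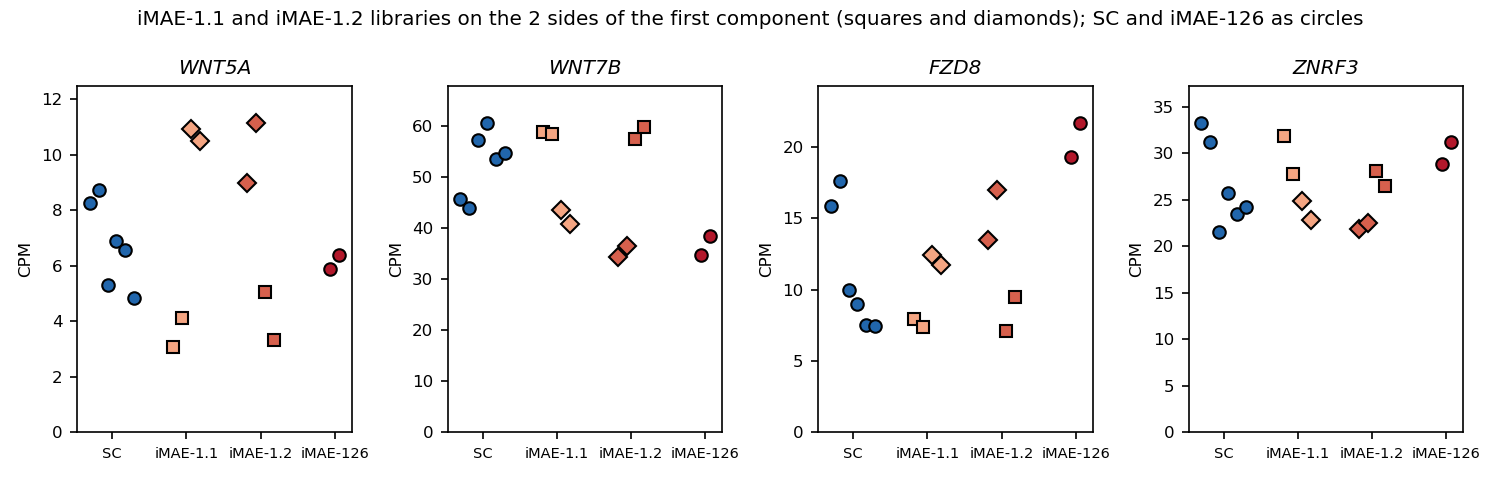
CPM of WNT5A, WNT7B, FZD8 and ZNRF3 (linear axes from 0) in the CRISPRi libraries by guide; each point is a library, squares and diamonds are libraries of the iMAE-1 guides on the first and second side of the first principal component, and circles are SC and iMAE-126. In each guide the squares and diamonds do not overlap, and for WNT5A and WNT7B they lie in opposite orders.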

How the data were processed

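Cells were harvested at 80% confluence and stranded poly(A) libraries were made with dUTP marking, per the labels' protocols. RSEM, Bowtie2 and hg19 are named in the submitters' processing notes, without versions or a strand option. Each of the 22 deposited tables holds the authors' RSEM expected count per gene and its TPM, per the file headers.

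After rounding, counts entered edgeR 4.0.16 (R 4.3.3) with TMM factors; genes passed filterByExpr (minimum count 10) and were tested by its robust quasi-likelihood method, with Benjamini-Hochberg adjustment over all genes tested and a threshold of 0.05. There were 3 fits: the lines (6 libraries), the CRISPRi libraries (16), and SC with M1A (8). Levels are CPM with TMM factors over all 22 libraries. Folds against a group with 0 counts are bounds at 3 counts over the group; those against 1 to 3 counts have exact intervals, which cover counting error only. The code was tested on simulated data.

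The members, gene lists and tests were chosen with earlier results of these data known. Members named are those with a mean of at least 5 CPM in a group, or called with an absolute log2 fold change of at least 2 and a mean of at least 1 CPM; other members are given by counts, ranges or, for WNT5B, a called fold change, which was printed after its value was seen. Of the other lists, up to 3 called genes per list and comparison are named, and SP5 with iMAE-126 was chosen after its values were seen. Results were recomputed with limma 3.58.1 on log2(TPM + 1), DESeq2 1.42.0, RLE factors, no filter, other library choices, library set as a term, a replicate block and each library left out. Fits of the compared groups alone and a minimum absolute log2 fold change of 1 were also run. The guide-to-guide comparison and the crossed block were added after seeing the data. No 2 libraries of a group were alike within counting noise: the mean chi-square per gene was 2.20 to 28.5, and 57.1 to 81.7 for SC libraries of different sets.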

Additional observations from a re-analysis of the deposited data

Results flagged for a closer look

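LRP6, the WNT co-receptor, was at 19.9 CPM in iMAE-1.1 replicate 2, while the other 3 libraries of that guide lay between 22.04 and 22.2 CPM. It was 1 outlying library among 52 member groups of 4 or 6 libraries that were tested, where chance gives about 1 in 20 groups.

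AXIN2 lay below every SC library in all 8 libraries with an iMAE-1 guide and above every SC library in both iMAE-126 libraries. The difference between iMAE-126 and the mean of the other guides was 0.86 on the log2 scale (adjusted p = 0.000382, edgeR). The iMAE-126 libraries are of set A and those of the iMAE-1 guides of set B, so guide and set cannot be told apart in it. In that comparison, added after the pattern was seen, 5760 of 15254 genes were called. Of the named members 1 showed such a pattern, and the share of all genes that did is not given here.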

How the results depend on the processing

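Of 2755 alternative values of named genes, 2511 kept their side of the threshold, 175 lost the call, 66 gained one and 3 reversed. A reversal is a changed sign with a call in at least 1 of the 2 fits. Changes of sign without a call in either fit are among the 2511. FZD1 with iMAE-126, at 0.19 and at −0.35 with library set as a term, is an example. The 3 reversals were in iMAE-126 versus SC with only the SC libraries of the same set: DKK3 −0.52 (adjusted p = 0.0266, edgeR), FZD1 −0.34 (0.0149) and FZD7 −0.35 (0.0200), and the cause was not tested. Members called in SC versus M1A were 9, 4 with an absolute log2 fold change of at least 1 as a second criterion, 17 with SC replicates 3 to 6 only, and 3 to 14 without each library in turn. All genes called in SC versus M1A were 11543 of 14596 with SC replicates 3 to 6 only and 9085 of 14744 without SC replicate 2. In iMAE-1.1 the count of members was 0, but 2 with DESeq2, 1 with library set as a term and 1 with SC of the same set (300 of 14280 genes). In iMAE-1.2 it was 0, but 4 with DESeq2, 2 with library set, 1 with limma on TPM (89 of 15254 genes) and 2 with SC of the same set (339 of 14331 genes). In iMAE-126 it was 4, but 2 with the second criterion, 2 with the compared groups alone, and 0 to 8 without each library in turn. With SC of the same set, the members called with iMAE-126 were those named in its paragraph above (3636 of 14941 genes). Limma on TPM moved the median of all genes in SC versus M1A from 0.07 to −0.17. It moved the calls over all genes from 4100 higher and 3732 lower to 2490 and 5006.

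The replicate numbers do not pair the libraries: same-numbered libraries of SC and the iMAE-1 guides had correlations of −0.13 to 0.14. With the number as a replicate block, 14, 22 and 23 members were called in M1A against 786-O and in OS-LM1 against M1A and 786-O, 11 in SC versus M1A, and 0 with each guide. With the OS-LM1 numbers crossed, 23 members were called. Over all genes, M1A versus 786-O had 5064 calls, 8733 with those groups alone and 2259 to 2551 without each library; iMAE-126 had 2357, 61 with the block, 892 with those groups alone and 151 to 3851 without each library. iMAE-1.1 had 69 and iMAE-1.2 had 110, but 2 and 2 with the block and 432 and 664 with DESeq2, and SC versus M1A had 7832, but 1999 without M1A replicate 2. Members near 1 CPM rest on few counts.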
